A study of Homo sapiens with 18 samples.

Results

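The 10 genes described here are ATF4 itself and 9 genes of the amino acid stress response that it controls, read in cells of acute lymphoblastic leukemia of B-cell precursors (BCP-ALL) with and without silencing of *SOX11*. They were taken by symbol (*ATF4*, *ASNS*, *PSAT1*, *PHGDH*, *SHMT2*, *SLC7A11*, *DDIT3*, *TRIB3*, *CHAC1* and *ATF3*), and all 10 were found among the 26941 genes of the count tables. RNA was sequenced from 18 samples of REH, 697 and RCH-ACV, which are established BCP-ALL cell lines. Of the 6 samples of a line, 3 had received siRNA against *SOX11* and 3 a non-specific control siRNA, by nucleofection at 300 nM, and RNA was collected at 48 h. The 3 samples of a group were independent biological replicates of 1 line, and each line was counted in a table of its own, so a line and its table cannot be told apart. These are bulk samples, in which fewer cells of a type and less RNA per cell cannot be told apart.

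When an amino acid runs short, uncharged tRNA activates the kinase GCN2, which phosphorylates the initiation factor eIF2 and slows translation, while translation of the *ATF4* mRNA rises. ATF4 then binds composite C/EBP-ATF elements in its targets, which make, import or spare amino acids, or stop the cell when the shortage lasts. *ASNS* makes asparagine from aspartate, and so counters asparaginase, an enzyme used as a drug in this leukemia that removes asparagine from the blood. Because *ATF4* is controlled largely by translation, its mRNA level is not a measure of ATF4 protein.

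The composite element can be searched for as TGATGNAA, and it was looked for on both strands in RefSeq promoter windows (GRCh38.p14, 250 bases before to 50 after a transcript start). Windows were found for 8 of the 10 genes, 14 windows in all, and the letters were present in a window of 3 genes. Over all genes with a window, 4.46% had a match, and over all 35116 windows 3.62% did. The 3 windows with a match are shown because they place the element relative to the start of *ASNS* and of 2 stress effectors. They read along the gene strand with the match in capitals.
ASNS promoter, chr7:97872359-97872658, minus strand: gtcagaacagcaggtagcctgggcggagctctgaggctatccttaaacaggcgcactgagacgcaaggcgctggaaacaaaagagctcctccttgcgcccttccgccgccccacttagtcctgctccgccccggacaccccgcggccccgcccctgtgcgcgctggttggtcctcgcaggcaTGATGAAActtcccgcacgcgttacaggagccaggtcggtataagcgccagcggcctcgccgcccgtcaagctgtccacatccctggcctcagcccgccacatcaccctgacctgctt
CHAC1 promoter, chr15:40953221-40953520, plus strand: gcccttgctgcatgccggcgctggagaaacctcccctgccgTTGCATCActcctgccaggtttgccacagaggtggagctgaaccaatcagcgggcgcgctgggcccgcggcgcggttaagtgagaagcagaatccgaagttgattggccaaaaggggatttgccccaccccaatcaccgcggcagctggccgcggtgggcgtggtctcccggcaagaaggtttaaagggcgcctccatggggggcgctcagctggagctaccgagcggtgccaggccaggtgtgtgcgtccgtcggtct
ATF3 promoter, chr1:212565157-212565456, plus strand: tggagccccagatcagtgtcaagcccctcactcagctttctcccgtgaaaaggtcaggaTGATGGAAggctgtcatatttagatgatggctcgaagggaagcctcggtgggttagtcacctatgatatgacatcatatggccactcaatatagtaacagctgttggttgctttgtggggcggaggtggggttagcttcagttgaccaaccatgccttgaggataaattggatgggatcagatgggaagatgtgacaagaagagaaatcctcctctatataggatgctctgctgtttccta
Counted from the transcript start, the match in *ASNS* ran from -68 to -61. In *CHAC1* it ran from -209 to -202 on the opposite strand, and in *ATF3* from -191 to -184 in 1 of the 2 windows searched for it. A match is a description of these letters, not a measured binding site.

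Levels are CPM (counts scaled to a library size of 1e+06), scaled by the trimmed mean of M-values (TMM) over the 18 samples. The samples held between 7039594 and 16592492 counts, and 3 counts, the most that a count of 0 allows, corresponded to 0.181 to 0.426 CPM. Of 9 B-cell precursor markers, 8 were at 1 CPM or more in REH and 9 in 697 and in RCH-ACV, with summed levels of 3666 to 5719 CPM. T-cell markers summed to at most 0.191 CPM and erythroid markers were listed at 0. Among 4 myeloid markers *CSF1R* was present in every line and *MPO* in REH, with sums from 2.35 to 31.0 CPM. *SOX11* was lower after its siRNA in each line, by log2 fold changes of -0.83 (SE 0.06) in REH, -0.91 (SE 0.07) in 697 and -0.67 (SE 0.05) in RCH-ACV.

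One pair of samples stood apart for these genes, a pattern noticed after the values were seen and given as a description. In 697 the third replicate was the lowest of its group for 9 of the 9 genes tested there, in the control siRNA and in the *SOX11* siRNA samples alike. Over all 12169 genes tested in 697 this was so for 8.71%. *SLC7A11*, the cystine importer, was at 43.6% of the mean of the other replicates in the control siRNA sample and at 46.3% in the *SOX11* siRNA sample. *CHAC1*, which degrades glutathione, was at 51.6% and 47.9%. *ASNS* was at 64.4% and 58.4%, whereas *ATF4* itself was at 90.5% and 83.0%. The median over the 9 genes was 64.4% in the control siRNA sample and 69.7% in the *SOX11* siRNA sample, against 99.0% and 101.1% over all genes tested.

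The same samples were lowest for many other genes of the pathway. Both replicates 3 were lowest for 4 of 4 transcription factor partners of ATF4, 8 of 10 amino acid transporters and 5 of 7 stress effectors. They were also lowest for 9 of 13 genes of the tRNA synthetase list, which includes the tRNA exporter *XPOT*. They were lowest for 7 of 15 metabolic enzymes and for 2 of 13 endoplasmic reticulum genes. Of 9 sensors upstream of ATF4 (eIF2 kinases, their regulators, an eIF2 subunit and phosphatase subunits), they were lowest for 1. In REH no replicate number was lowest in both siRNA groups for more than 2 of the 10 genes, nor was any in RCH-ACV. Total counts of the 697 replicates 3 were 7644636 and 9410730, within the range of the other samples, and their *SOX11* levels were 59.3 and 30.9 CPM, close to those of the other replicates. Both replicates 2 of 697 were the highest of their groups for 6 of the 9 genes and for 29 of 71 genes of the wider pathway, and over all genes tested this was so for 11.2%. The cause of these patterns was not tested, and the differences of the 10 genes between 697 and the other lines are also given without replicate 3.

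**Figure D1:**
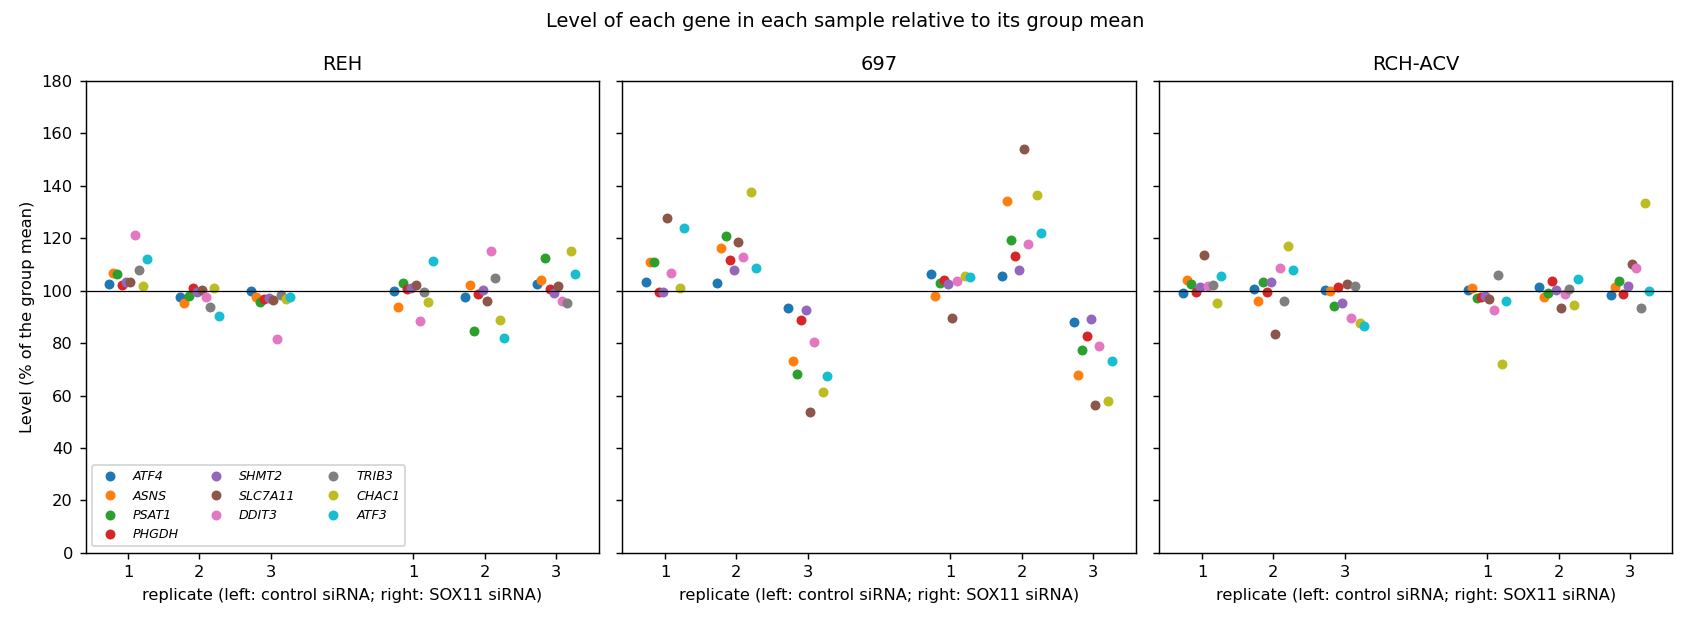
Level of each gene in each sample (y axis, % of the mean of its group of 3 samples) by replicate number (x axis) in REH, 697 and RCH-ACV; each point is 1 gene in 1 sample, and *TRIB3* is left out of 697, where it was near 0. In 697 all points of the third replicate lie below 100% in both siRNA groups, with *SLC7A11* the lowest.

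The spread among replicates was likewise wider in 697 for these genes. The median coefficient of variation of the genes was 23.5% in the 697 control samples and 21.1% in the 697 *SOX11* siRNA samples. It was between 3.71% and 5.10% in the 4 groups of REH and RCH-ACV. Over all genes averaging 1 CPM or more it was 8.46% and 7.53% in the 697 groups.

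The first question was whether silencing *SOX11* changed the genes of this response. In REH 0 of the 10 passed an adjusted p of 0.05 (edgeR quasi-likelihood F-test, Benjamini-Hochberg over all genes tested), where 4.65% of 12787 genes did, 2.64% higher and 2.01% lower. In 697 *TRIB3*, with 17 counts in all control samples and 19 in all *SOX11* siRNA samples, was not tested. There none of the other 9 genes passed, where 0.559% of 12169 genes did, 0.0822% higher and 0.477% lower. In RCH-ACV 1 of 10 passed, where 7.66% of 12963 genes did, 3.7% higher and 3.97% lower. At an unadjusted p under 0.05 the counts were 1, 0 and 2. DESeq2 called none in any line.

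*ASNS* (hg19 chr7:97480989-97501854, minus strand, 13 exons) was at 40.2, 35.9 and 36.8 CPM in the REH control samples and at 34.2, 37.2 and 37.9 CPM after *SOX11* siRNA. These groups overlapped, and the log2 fold change was -0.04 (SE 0.07, 95% interval -0.19 to 0.10). In 697 it was at 84.3, 88.3 and 55.5 CPM in the control samples and at 67.9, 92.8 and 46.9 CPM after *SOX11* siRNA. The log2 fold change there was -0.14 (SE 0.22, 95% interval -0.63 to 0.36), and -0.08 (SE 0.13) without replicates 3. In RCH-ACV it was at 82.3, 75.9 and 79.1 CPM in the control samples and at 75.9, 73.4 and 76.2 CPM after *SOX11* siRNA. The groups there overlapped by a narrow margin, and the log2 fold change was -0.08 (SE 0.05, 95% interval -0.19 to 0.04). The intervals place *ASNS* after *SOX11* siRNA between 87.7% and 107.4% of its control level in REH, between 87.5% and 102.7% in RCH-ACV, and between 64.7% and 128.1% in 697. A gene of a long non-coding RNA overlaps exons of *ASNS* by up to 781 bases on the same strand, and it was not counted as a gene of its own.

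*ATF4*, the transcription factor at the head of the response, was at 333 to 351 CPM in the REH control samples and at 341 to 358 CPM after *SOX11* siRNA. It was at 299 to 331 and at 277 to 336 CPM in 697, and at 278 to 281 and at 271 to 279 CPM in RCH-ACV. Its log2 fold changes were 0.04 (SE 0.03) in REH, -0.02 (SE 0.08) in 697 and -0.02 (SE 0.04) in RCH-ACV, and the 2 siRNA groups overlapped in each line. The widest of its 95% intervals ran from -0.19 to 0.14, in 697.

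Serine and glycine synthesis gave the single call. *PHGDH* and *PSAT1* are the first enzymes of serine synthesis, and *SHMT2* turns serine into glycine in mitochondria. *SHMT2* (hg19 chr12:57623356-57628718, plus strand, 12 exons) was at 244, 249 and 229 CPM in the RCH-ACV control samples and at 262, 268 and 272 CPM after *SOX11* siRNA. The groups did not overlap, and the log2 fold change was 0.15 (SE 0.04, edgeR adjusted p = 0.0396). It was not past the threshold in DESeq2 (adjusted p = 0.0883), in 1 fit over the 18 samples (adjusted p = 0.124), or when any sample other than *SOX11* siRNA replicate 3 was left out (adjusted p from 0.0670 to 0.195). *PSAT1* in RCH-ACV was at 195, 197 and 180 CPM in the control samples and at 199, 203 and 212 CPM after *SOX11* siRNA. The groups did not overlap, and the log2 fold change of 0.10 (SE 0.05) had an edgeR adjusted p of 0.197. *PHGDH* in RCH-ACV was at 424, 424 and 432 CPM in the control samples and at 399, 423 and 404 CPM after *SOX11* siRNA. These groups did not overlap either, and the log2 fold change of -0.06 (SE 0.04) had an edgeR adjusted p of 0.380. In all, 3 of the 10 genes had groups that did not overlap in RCH-ACV, where 25.9% of all genes tested did. In REH and 697 the 3 genes had log2 fold changes between -0.06 and 0.07 and none passed.

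*SLC7A11* (hg19 chr4:139085251-139163503, minus strand), the transport subunit of the cystine/glutamate exchanger that feeds glutathione synthesis, was the 1 gene of the 10 with groups that did not overlap in REH, where 21.4% of all genes tested did. It was at 35.0, 34.0 and 32.6 CPM in the control samples and at 29.5, 27.7 and 29.4 CPM after *SOX11* siRNA, a log2 fold change of -0.23 (SE 0.07). The edgeR adjusted p was 0.0710, so it did not pass, and over the alternatives it lay between 0.0600 and 0.708. In RCH-ACV the log2 fold change was 0.12 (SE 0.12) and in 697 0.12 (SE 0.35), and the difference between lines had an edgeR adjusted p of 0.854. An antisense gene, *SLC7A11-AS1*, overlaps its exons by 691 bases, and whether counting used the strand is not given in the sources used here.

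None of the effectors of prolonged stress passed the test in any line. *DDIT3* encodes the pro-death factor CHOP, *TRIB3* a pseudokinase that inhibits ATF4, and *ATF3* a further factor of the same family. In REH *DDIT3* was at 30.0, 24.2 and 20.2 CPM in the control samples and at 23.5, 30.6 and 25.6 CPM after *SOX11* siRNA, so that the groups overlapped. *TRIB3* in REH was at 63.1, 54.9 and 57.6 CPM and at 62.7, 66.0 and 60.0 CPM, a log2 fold change of 0.11 (SE 0.06, edgeR adjusted p = 0.410). In RCH-ACV *TRIB3* was at 30.0, 28.2 and 29.9 CPM and at 33.0, 31.4 and 29.0 CPM, a log2 fold change of 0.08 (SE 0.08). *CHAC1* and *ATF3* ranged from 3.41 to 15.4 and from 6.82 to 27.1 CPM over the 18 samples, and the 95% interval of the log2 fold change of *CHAC1* in 697 was -0.88 to 0.52. Exons of *DDIT3* and *MARS1* overlap by 156 bases on opposite strands.

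With the 3 lines fitted together, no gene of the 10 passed for a shared effect of *SOX11* siRNA, where 9.02% of 14026 genes did, 3.74% higher and 5.28% lower. The log2 fold changes lay between -0.09 and 0.09, with 5 of each sign. The effect on none of the 10 was shown to differ between lines, where 0.727% of all genes did, and the edgeR adjusted p values were 0.633 or more. No gene of the 10 was at an unadjusted p under 0.05 in either test, and DESeq2 called none. In 697 none of the 9 genes had groups that did not overlap, where 13.1% of all genes tested did.

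**Figure D2:**
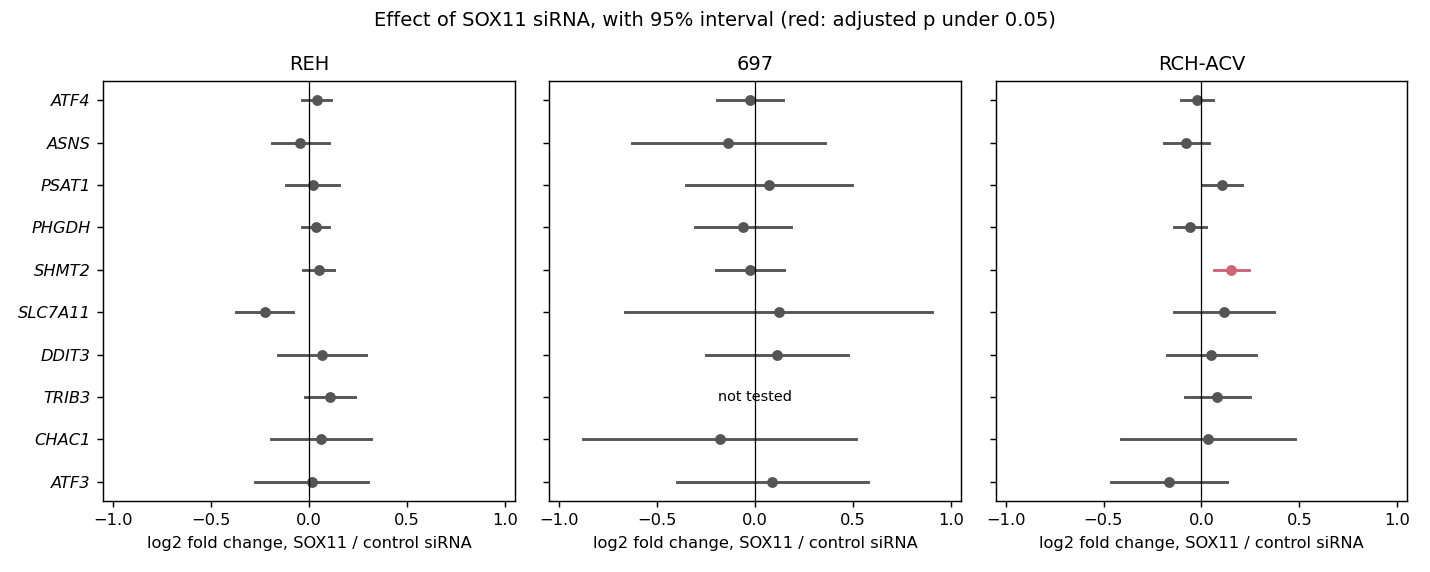
Log2 fold change after *SOX11* siRNA relative to control siRNA (x axis) for each of the 10 genes (y axis) in REH, 697 and RCH-ACV, with 95% intervals from edgeR on 3 against 3 samples. The intervals cover 0 except for *SLC7A11* in REH, *PSAT1* in RCH-ACV and *SHMT2* in RCH-ACV (red), the last being the 1 gene past an adjusted p of 0.05.

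The second question was how high the response stood in each line. On a scale per length of transcript (RPKM) the order in the REH control samples ran from *ATF4* (241) and *PHGDH* (193) through *SHMT2* (95.9), *PSAT1* (46.4), *DDIT3* (27.5), *TRIB3* (24.8) and *ASNS* (15.8) to *CHAC1* (6.51), *ATF3* (4.37) and *SLC7A11* (3.51). In 697 *PHGDH* (264) stood above *ATF4* (226), and *SHMT2* (158) and *PSAT1* (148) were neighbours within the spread of their replicates. In RCH-ACV the order at the top was *PHGDH* (229), *ATF4* (197), *SHMT2* (112) and *PSAT1* (86.4). *ASNS*, at 31.9 RPKM in 697 and 33.2 RPKM in RCH-ACV, was thus well below the serine synthesis genes in every line.

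Lines were compared in the 9 control samples. Between 697 and REH 7 of the 10 genes passed, 5 higher and 2 lower in 697, where 76.3% of 13686 genes did, 37% higher and 39.4% lower. Between RCH-ACV and REH 9 passed, 4 higher and 5 lower, where 73.9% of genes did, 37.7% higher and 36.2% lower. Between RCH-ACV and 697 8 passed, 1 higher and 7 lower in RCH-ACV, where 64.2% of genes did, 33.3% higher and 30.9% lower. These shares are near the background, since most genes differ between the lines, and the size and direction of each gene are what the comparison gives.

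*ASNS* was lowest in REH. Its control levels of 35.9 to 40.2 CPM in REH did not overlap with 55.5 to 88.3 CPM in 697 or with 75.9 to 82.3 CPM in RCH-ACV. The log2 difference from REH was 1.02 (SE 0.12, edgeR adjusted p = 4.24e-07) in 697 and 1.09 (SE 0.12, edgeR adjusted p = 1.71e-07) in RCH-ACV, and in the *SOX11* siRNA samples it was 0.93 and 1.04. Without replicate 3 of 697 the first was 1.21 (SE 0.07). 697 and RCH-ACV were not told apart for *ASNS*, at a log2 difference of 0.06 (SE 0.11, 95% interval -0.17 to 0.30), which was -0.12 (SE 0.07) without the third replicate of 697. Levels in the other lines were therefore 2.04 and 2.12 times that of REH.

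The serine and glycine genes were likewise lowest in REH. *PSAT1* was at 98.0 to 109 CPM in REH, at 222 to 394 CPM in 697 and at 180 to 197 CPM in RCH-ACV, with no overlap. Its log2 differences from REH were 1.68 (SE 0.14) and 0.91 (SE 0.14). *SHMT2* was higher than in REH by 0.73 (SE 0.05) in 697 and by 0.23 (SE 0.05) in RCH-ACV. *PHGDH* was higher by 0.46 (SE 0.06) and 0.26 (SE 0.06). RCH-ACV lay below 697 for each, by log2 differences of -0.77 for *PSAT1*, -0.50 for *SHMT2* and -0.21 for *PHGDH*, all past the threshold. Without replicate 3 of 697 the differences of 697 from REH were 1.89 for *PSAT1*, 0.78 for *SHMT2* and 0.54 for *PHGDH*, and those of RCH-ACV from 697 were -0.98, -0.55 and -0.28, again all past the threshold. In the *SOX11* siRNA samples the difference of *PHGDH* between RCH-ACV and REH was 0.15 and did not pass (edgeR adjusted p = 0.0689), and the other 8 of these 9 differences passed in the same direction.

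*SLC7A11* was instead highest in REH. It was at 32.6 to 35.0 CPM in REH, at 8.51 to 20.3 CPM in 697 and at 11.3 to 15.4 CPM in RCH-ACV. The log2 differences from REH were -1.08 (SE 0.17) in 697 and -1.31 (SE 0.17) in RCH-ACV. 697 and RCH-ACV overlapped, with a log2 difference of -0.22 (SE 0.21, edgeR adjusted p = 0.360), and without the third replicate of 697 it was -0.52 (SE 0.13, edgeR adjusted p = 0.00194). Without that sample *SLC7A11* in 697 differed from REH by -0.78 (SE 0.11).

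*TRIB3* (hg19 chr20:343479-378203, plus strand, 4 exons) had the largest log2 difference of the 10 genes. It was at 63.1, 54.9 and 57.6 CPM in the REH control samples and at 30.0, 28.2 and 29.9 CPM in RCH-ACV, but at 1.23, 0.881 and 0.135 CPM in 697. The 697 control samples held 10, 6 and 1 counts, and the 697 *SOX11* siRNA samples 11, 5 and 3. The log2 difference between 697 and REH was -6.23 (SE 0.19), a level of 1.33% of that in REH (95% interval 1.01% to 1.77%). That interval is too narrow for so few counts in 697. When samples were left out, the log2 difference lay between -6.837 and -5.742, beyond the interval limits of -6.635 and -5.82. *TRIB3* passed the filter on low counts through REH and RCH-ACV, so a gene like it had to differ. RCH-ACV stood at 50.7% of REH (log2 difference -0.98, SE 0.09). In the *SOX11* siRNA samples the 2 differences from REH were -6.37 and -1.01, and without the third replicate of 697 the first was -5.74. RCH-ACV was higher than 697 by 5.25 (SE 0.23) on the log2 scale, and by 4.76 (SE 0.21) without that sample.

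The remaining factors and *CHAC1* were ordered in other ways. *ATF3* was at 14.1 to 25.8 CPM in the 697 control samples, above 7.66 to 9.51 CPM in REH and 6.99 to 8.71 CPM in RCH-ACV. It was higher in 697 than in REH by 1.32 (SE 0.18) on the log2 scale, and REH and RCH-ACV overlapped (log2 difference -0.05, SE 0.21). RCH-ACV lay below 697 by a log2 difference of -1.37 (SE 0.19). Without replicate 3 of 697 these differences of 697 from REH and of RCH-ACV from 697 were 1.54 and -1.59. *DDIT3* and *CHAC1* were lowest in RCH-ACV, by -0.69 (SE 0.14) and -1.08 (SE 0.22) relative to REH and by -0.57 (SE 0.15) and -1.26 (SE 0.23) relative to 697. Without replicate 3 of 697 the differences from 697 were -0.71 and -1.51. REH and 697 were not told apart for *DDIT3* (edgeR adjusted p = 0.447) or *CHAC1* (edgeR adjusted p = 0.411), but without the third replicate of 697 *CHAC1* was higher in 697 by 0.42 (SE 0.15, edgeR adjusted p = 0.0172). *ATF4* mRNA varied least, lower in RCH-ACV than in REH by a log2 difference of -0.27 (SE 0.04) and than in 697 by -0.19 (SE 0.04), or -0.24 without replicate 3 of 697. Between 697 and REH it was -0.08 (SE 0.04), or -0.035 without that replicate, and did not pass, but it passed with library size alone as the scale (-0.22), which moved the median of all genes from -0.02 to -0.15, without 697 control replicate 1 (-0.11) and in the *SOX11* siRNA samples (-0.15).

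**Figure D3:**
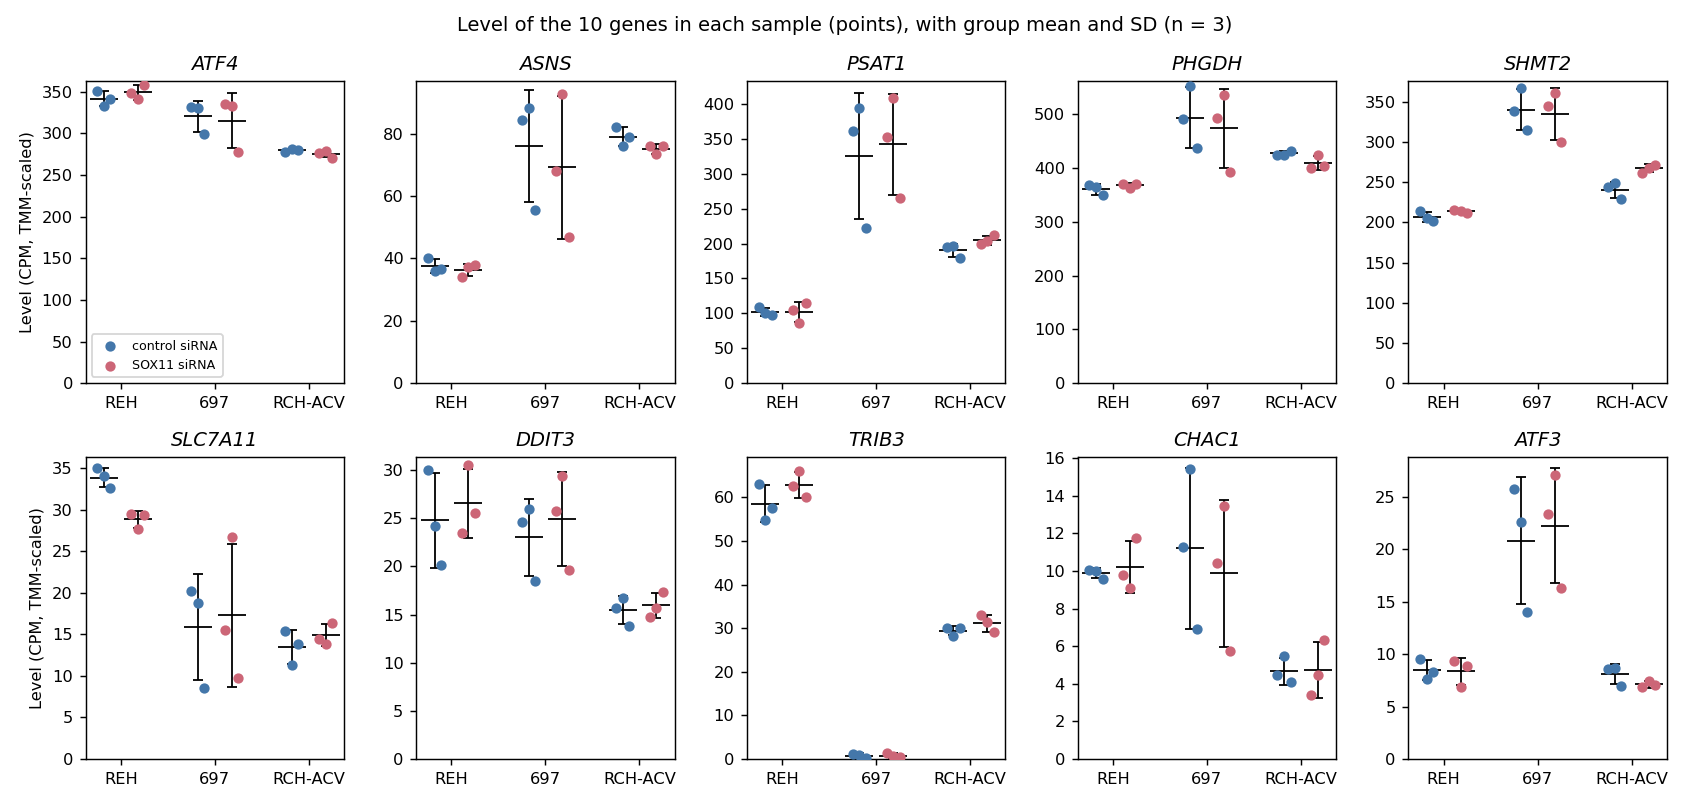
Level in CPM (y axis, linear from 0) of each of the 10 genes in each sample of REH, 697 and RCH-ACV (x axis), with control siRNA in blue, *SOX11* siRNA in red, and the mean and SD of each group of 3 in black. *ASNS* and *PSAT1* stand lowest in REH, *SLC7A11* highest in REH, and *TRIB3* near 0 in 697 in both siRNA groups.

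**Figure D4:**
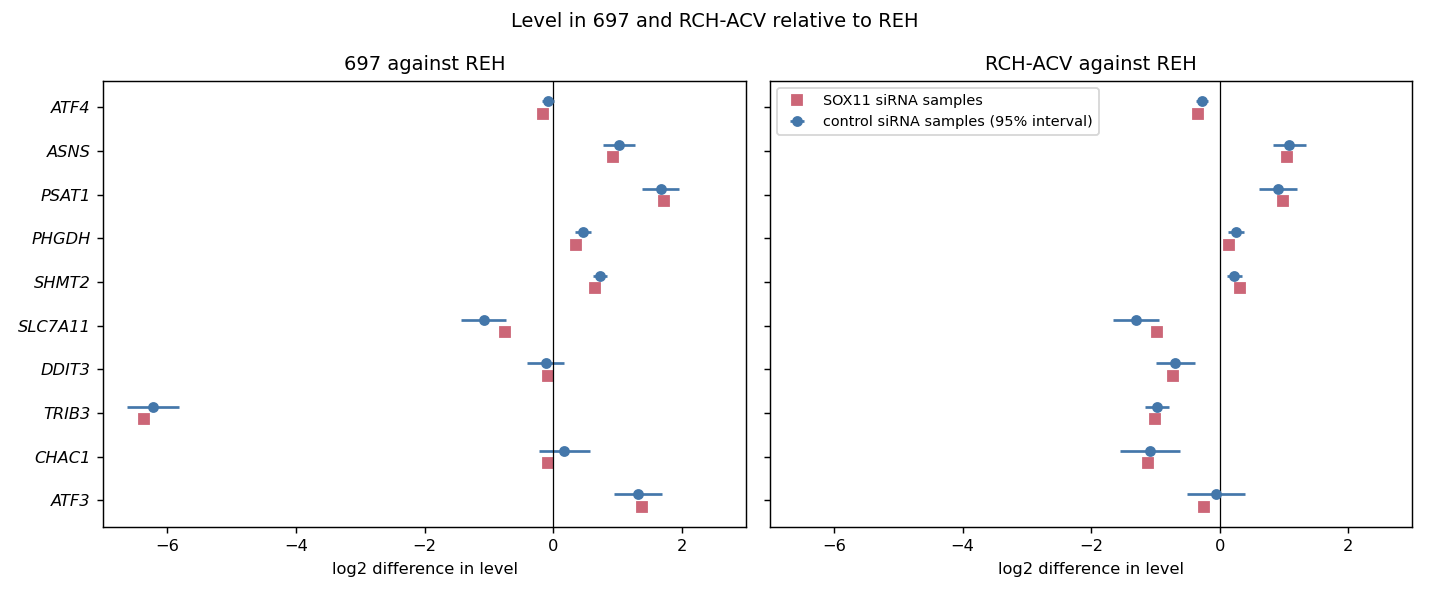
Log2 difference in level of 697 and of RCH-ACV from REH (x axis) for each gene (y axis), in the control siRNA samples (circles with 95% intervals) and in the *SOX11* siRNA samples (squares). The 7 genes called between 697 and REH in the control samples were also called in the *SOX11* siRNA samples, with *TRIB3* at -6.23 and -6.37.

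The genes most like *ASNS* over the 6 group means, by the root-mean-square difference of log2 levels after centring each gene, were *IDE* (0.0446), *EPB41L4A* (0.0473) and *LAMTOR2* (0.0501) among 9464 genes. Only genes tested in all 3 lines with a mean of at least 10 CPM were compared, so *TRIB3* and *CHAC1* were not ranked. Of the genes described here that were ranked, the nearest was *SHMT2* (0.338), ranked 1713, followed by *PHGDH* (0.355) and *PSAT1* (0.390). Group means share libraries and lines, so likeness here is a description of 3 lines.

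The wider pathway was read from 78 further genes in lists of sensors, partners of ATF4, amino acid transporters, tRNA synthetases with *XPOT*, enzymes, stress effectors and endoplasmic reticulum genes. After *SOX11* siRNA the genes that passed numbered 3 among 68 tested for REH, 0 among 71 for 697 and 10 among 72 for RCH-ACV. These are 4.41%, 0% and 13.9% of the genes tested in the lists, beside 4.65%, 0.559% and 7.66% of all genes tested. The median log2 fold changes were -0.0032, 0.0025 and 0.036, against -0.0023, -0.0035 and 0.0051 over all genes tested. In 697 3 were at an unadjusted p under 0.05 and DESeq2 called 0. No sensor and no gene of the tRNA synthetase list passed in any line.

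In REH the arginine and lysine transporter *SLC7A3* rose by 0.21 (SE 0.05) on the log2 scale. The chaperone *HSP90B1* fell by 0.12 and the death receptor gene *TNFRSF10B*, a target of CHOP, fell by 0.27. DESeq2 called none of the 3 in REH. *TNFRSF10B* was at 45.1, 43.6 and 45.2 CPM in the REH control samples and at 37.4, 36.8 and 35.9 CPM after *SOX11* siRNA. The groups did not overlap, nor did those of 21.4% of all genes tested in REH.

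In RCH-ACV 5 genes rose and 5 fell. *DDIT4*, an inhibitor of mTORC1, was at 26.0, 21.2 and 20.8 CPM in the control samples and at 42.6, 59.8 and 50.8 CPM after *SOX11* siRNA. *SLC7A3* rose from 26.1, 25.3 and 21.5 CPM to 30.9, 33.4 and 29.9 CPM, a log2 fold change of 0.38 (SE 0.09). The other genes that rose were *CBS* (0.28), which makes cystathionine, *PCK2* (0.28), the mitochondrial phosphoenolpyruvate carboxykinase, and *ATF5* (0.25), a relative of ATF4. *TNFRSF10B* (-0.26), the glutamine transporter gene *SLC38A2* (-0.18), *HSP90B1* (-0.17), *XBP1* (-0.17), a factor of the unfolded protein response, and the glutamine synthetase gene *GLUL* (-0.14) fell. The count was 25 without *SOX11* siRNA replicate 3 of RCH-ACV, and between 2 and 4 without any other single sample. A gene annotated as an artifact overlaps exons of *CBS* by 793 bases on the same strand, and it was not counted as a gene of its own. Exons of *TNFRSF10B*, *ATF5* and *HSP90B1* overlap genes on the opposite strand.

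With the 3 lines fitted together, 5 of 73 genes passed for a shared effect, 6.85% of the lists beside 9.02% of all genes tested. *SLC7A3* rose by 0.23 (SE 0.06), and *TNFRSF10B* fell by 0.27, *HSP90B1* by 0.14, *XBP1* by 0.11 and *GLUL* by 0.08 on the log2 scale. *TNFRSF10B* was at 0.246 to 0.734 CPM in the 697 control samples, so its shared effect rests on REH and RCH-ACV. A shared effect is 1 estimate over the lines and need not hold in each. For *XBP1* the log2 fold changes were 0.0007 (SE 0.04) in REH, -0.17 (SE 0.05) in 697 and -0.17 (SE 0.04) in RCH-ACV. Those of *GLUL* were -0.05 (SE 0.03), -0.03 (SE 0.04) and -0.14 (SE 0.04), in the same order.

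Between the lines' control samples most genes of the lists passed, as most genes of the tables did. In 697 against REH 60 of 73 passed (82.2%), 46 higher and 14 lower, beside 76.3% of all genes tested, 37% higher and 39.4% lower. Of 13 genes of the tRNA synthetase list 10 were higher in 697, and of 16 enzymes 12 were. In RCH-ACV against 697 62 of 73 passed (84.9%), 16 higher and 46 lower, beside 64.2% of all genes tested, 33.3% higher and 30.9% lower. There 9 of 10 transporters and 11 of 13 genes of the tRNA synthetase list were lower and none higher. In contrast, 8 of 13 endoplasmic reticulum genes were higher. Median log2 differences in RCH-ACV against 697 were -0.30 for transporters, -0.37 for the tRNA synthetase list and 0.16 for endoplasmic reticulum genes. Over all genes tested the median was 0.01. Without replicate 3 of 697 the counts were 62 of 73 in 697 against REH, 50 higher and 12 lower, and 62 of 73 in RCH-ACV against 697, 15 higher and 47 lower, and the 3 medians were -0.42, -0.45 and 0.23. In RCH-ACV against REH 56 passed (76.7%), 36 higher and 20 lower, beside 73.9% of all genes tested, 37.7% higher and 36.2% lower.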

How the data were processed

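RNA was sequenced from 18 samples, 3 for each of 2 siRNAs in 3 cell lines. The authors trimmed and quality-filtered reads, aligned them to hg19 with STAR 2.5.3a and counted them on transcripts with HOMER. The deposited values are raw counts that had not been normalized, with 1 table a line. Total counts per sample ranged from 7039594 to 16592492. RefSeq identifiers were matched to symbols for 98.0% of transcripts, and each gene was represented by its transcript of largest summed count, since transcripts of a gene hold largely the same reads. The tables held 0 columns of other samples.

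Counts were tested with edgeR 4.0.16 (quasi-likelihood F-test, TMM, filterByExpr, two-sided, Benjamini-Hochberg over all genes tested, threshold 0.05) in each line, over the 18 samples with line as a term, and between lines in the 9 control samples. Leaving out samples, other scalings, filters, transcript choices and fits, a replicate block and DESeq2 1.42.0 were alternatives. The code was tested on simulated data. RPKM used canonical GENCODE transcript lengths on hg19. Replicate pairs differed by more than counting noise, and intervals cover the spread between these samples. The genes and lists were chosen with earlier results of these data known. Named genes were the 10 genes, *SOX11*, up to 5 called genes in each direction from the lists in each line, and the 3 most like *ASNS*. For *SHMT2* and *SLC7A11* promoters were not analysed here.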

Additional observations from a re-analysis of the deposited data

Results flagged for a closer look

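*DDIT4*, the mTORC1 inhibitor among the stress effectors, was the result whose siRNA effect differed between the lines. Its log2 fold change after *SOX11* siRNA was 1.20 (SE 0.12) in RCH-ACV, -0.07 (SE 0.08) in REH and -0.13 (SE 0.22) in 697, and the test of the difference over the 3 lines gave an edgeR adjusted p of 0.00869. Over all genes 0.727% passed that test. *DDIT4* was named because it passed in RCH-ACV, so the test of the difference reuses those values. It was higher in 3 of 3 RCH-ACV *SOX11* siRNA samples than in any RCH-ACV control sample. Groups did not overlap for 25.9% of all genes tested in RCH-ACV. In REH the levels were 29.3, 30.1 and 28.5 CPM in the control samples and 26.5, 29.6 and 28.0 CPM after *SOX11* siRNA. In 697 they were 70.3, 72.7 and 45.4 CPM and 59.4, 75.0 and 38.5 CPM, and the third replicates were again the lowest. The adjusted p of the difference lay between 0.000145 and 0.0118 over the other settings and between 1.92e-05 and 0.0699 when samples were left out, the highest without RCH-ACV *SOX11* siRNA replicate 2, where it did not pass. Groups of 3 samples are too small for a test of single outlying samples.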

How the results depend on the processing

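The counts of the 10 genes called between lines lay between 7 and 9 under every alternative, and the counts of 0 in REH, in 697, for the shared effect and for its difference between lines were 0 under every alternative. In RCH-ACV the 1 gene called became 0 with DESeq2, with the replicate block and in 1 fit over the 18 samples, and lay between 0 and 1 when samples were left out. The pathway count of 3 in REH became 0 with DESeq2, 1 with the replicate block and 1 in 1 fit over the 18 samples, and lay between 0 and 4 when samples were left out. The count of 10 in RCH-ACV became 6 in 1 fit over the 18 samples, and lay between 2 and 25 when samples were left out. The cause was not tested.

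Fold changes near 0 changed sign. *ASNS* lay between -0.087 and 0.011 in REH and between -0.41 and 0.090 in 697 when samples were left out. In REH the ranges were -0.031 to 0.22 for *DDIT3*, -0.053 to 0.12 for *CHAC1*, -0.068 to 0.11 for *PSAT1* and -0.077 to 0.11 for *ATF3*, which was -0.00086 with DESeq2 and -0.020 with the replicate block. In 697 they were -0.072 to 0.066 for *ATF4*, -0.021 to 0.27 for *DDIT3*, -0.48 to 0.12 for *CHAC1*, -0.14 to 0.24 for *PSAT1*, -0.16 to 0.063 for *PHGDH*, -0.077 to 0.057 for *SHMT2*, -0.34 to 0.43 for *SLC7A11* and -0.13 to 0.28 for *ATF3*. In RCH-ACV they were -0.023 to 0.11 for *DDIT3* and -0.16 to 0.16 for *CHAC1*.

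Without replicates 3 of 697 the fold changes of *ATF4* and *SHMT2* in 697 were 0.029 and 0.014, and *DDIT3* in 697 against REH was 0.018. Between lines the ranges were -0.22 to 0.037 for *DDIT3* and -0.10 to 0.42 for *CHAC1* (697 against REH), -0.14 to 0.050 for *ATF3* (RCH-ACV against REH), and -0.12 to 0.17 for *ASNS* and -0.52 to 0.016 for *SLC7A11* (RCH-ACV against 697). In the *SOX11* siRNA samples *CHAC1* was -0.073 for 697 against REH.

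With the replicate number as a block the calls over all genes went from 594 to 479 in REH, from 68 to 29 in 697 and from 993 to 689 in RCH-ACV. Over all genes the deviations of same-numbered samples had r from -0.25 to 0.26 in the 9 pairs, so the numbers were not taken to pair the samples. For the genes described here same-numbered samples of 697 did deviate together, and there the block lowered the SE of *ASNS* from 0.22 to 0.091 and of *CHAC1* from 0.32 to 0.14, and no gene of the 9 tested was called. Depth limits *TRIB3* in 697, at 1 to 11 counts a sample. Leaving out replicates 3 of 697 and using the *SOX11* siRNA samples for the lines were chosen after seeing the data.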

Other observations

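Beside *TRIB3*, other genes of the pathway were near absent from 1 line, a search made after the values were seen. Of 83 genes of the response with a control mean of at least 10 CPM in some line, 8 had a mean under 1 CPM in another. Over all 10785 such genes 7.75% did, so the count is near the share over all genes and is not particular to the pathway. In 697 these were *TRIB3*, *TNFRSF10B* (44.6 CPM in REH, 0.462 in 697, 66.9 in RCH-ACV) and *ALDH1L2*, a mitochondrial folate enzyme (5.17, 0.0490 and 10.6 CPM). In REH they were the proline enzyme *PYCR1* (0.170 CPM in REH, 133.1 in 697, 107.0 in RCH-ACV), the alanine aminotransferase *GPT2* (0.563, 148.2 and 95.7 CPM), the secreted factor *STC2* (0.323, 94.98 and 63.1 CPM), *CBS* (listed at 0 in REH, 21.0 and 72.5 CPM) and *IMPACT*, an inhibitor of GCN2 (listed at 0 in REH, 37.5 and 1.18 CPM).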
